A study of Arabidopsis thaliana with 6 samples.

Results

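The genes described here are 9 loci of the photoperiod pathway of Arabidopsis thaliana, out of 32833 loci counted in each library: FKF1 (AT1G68050), ZTL (AT5G57360), LKP2 (AT2G18915), GI (AT1G22770), CDF1 (AT5G62430), CDF2 (AT5G39660), CDF3 (AT3G47500), CDF5 (AT1G69570) and CO (AT5G15840). They were taken by locus identifier and were chosen by their place in one pathway after the levels of FKF1 and GI in these same libraries were known, so their differences between groups are a description and not a test. All 9 were found, and all 9 passed the filter on low counts. By the labels, RNA was sequenced from inflorescence meristems of 15 cm tall stems, dissected free of older flower primordia. The labels give growth in 16 h light and 8 h dark at 22 °C for plants that were imaged. In the 3 libraries labelled VGD1 the plants had the genotype pCLV3>>erTurquoise, >>VGD1, that is, a fluorescent reporter together with the pectin methylesterase VGD1, an enzyme that removes methyl groups from wall pectin. The 3 control libraries came from pCLV3>>erTurquoise plants, with the reporter alone. Both groups carried the dexamethasone-gated activator GR-LhG4 and both were sprayed with dexamethasone. The CLV3 promoter is active in the stem cells at the tip, a small part of the tissue that was sequenced. The labels state the dexamethasone concentration as 30 µM in one field and 30 mM in another, and the time to harvest as 48 h in one and 72 h in another. They give no hour of day at harvest.

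FKF1, ZTL and LKP2 are a small family of proteins with a blue-light sensing LOV domain, an F-box that joins them to a ubiquitin ligase, and kelch repeats that bind substrates. GI, a large plant protein that peaks late in the day, binds them in blue light. In leaves the FKF1-GI complex marks the CDF proteins, Dof-type repressors, for degradation, which frees the CO gene from repression, and CO protein then switches on the florigen gene FT in the phloem in long days. ZTL removes the clock proteins TOC1 and PRR5 and is stabilised by GI. Transcripts of FKF1, GI and the CDF genes cycle over the day, the CDF genes with their peak around dawn, while ZTL transcript is known as nearly constant.

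Libraries labelled VGD1 held 18432365 to 19394881 counts and controls 6638772 to 24437872, with control replicate 3 the shallowest. VGD1 RNA itself did not mark the induced group: it stood at 6.59, 7.92 and 7.11 CPM (read counts relative to the library total, scaled with TMM factors) in the libraries labelled VGD1 and at 11.4, 12.7 and 4.80 CPM in the controls. Directions below are therefore those of libraries labelled VGD1 against controls. Whether replicates were separate plants is not in the labels, so errors and p-values cover the spread among these 6 libraries, which may be technical. Of the defining meristem genes, STM and CLV1 were present in all 6 libraries, and CLV3 had 3, 8 and 11 counts in the libraries labelled VGD1 and 0 in each of the 3 controls, too few for the filter on low counts.

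FKF1, the blue-light receptor of the pathway, had the widest gap of the 9 genes. It stood at 4.35, 4.17 and 2.80 CPM in the libraries labelled VGD1 and at 19.1, 16.5 and 27.9 CPM in the controls. The lowest control lay well above the highest library labelled VGD1, so the groups did not overlap. Means were 3.77 ± 0.84 CPM in the libraries labelled VGD1 and 21.2 ± 5.95 CPM in the controls (SD, n = 3 each). This is 0.189 times the control level, with a 95% interval from 0.1304 to 0.2736 times (log2 fold change -2.40, SE 0.24, from the edgeR fit of all genes). Ordered by log2 fold change, FKF1 was the 48th lowest of 19719 genes tested. The difference rests on 52 to 87 counts per library labelled VGD1 and 186 to 432 per control, so counting error alone is small beside it. In these bulk samples fewer cells of a type and less RNA per cell cannot be told apart. FKF1 transcript cycles over the day, and the labels give no hour of harvest for either group. The part of harvest hour in this difference was not tested. In the TAIR10.1 annotation 21 of 2168 exon bases of FKF1 overlap MAP70-1, a microtubule-associated protein gene on the other strand, which had 2452 to 2890 counts in libraries labelled VGD1 and 1030 to 3726 in controls.

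**Figure D1:**
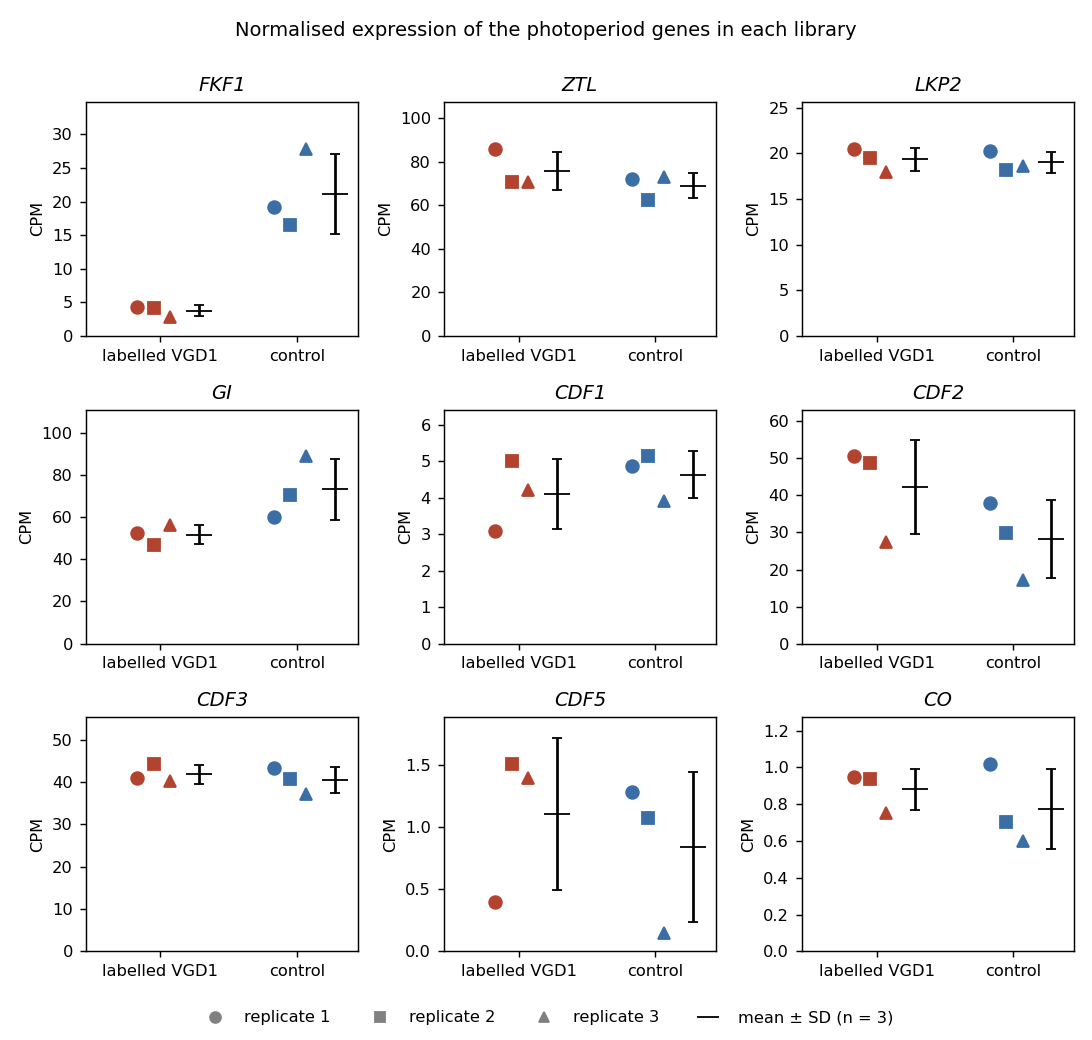
Normalised expression (CPM, linear axes from 0) of the 9 genes in each library, with symbols for the replicate and black bars for the mean ± SD of 3 libraries. FKF1 separates the groups widely (2.80 to 4.35 CPM in libraries labelled VGD1, 16.5 to 27.9 CPM in controls), GI narrowly, and the other 7 genes overlap.

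The relatives of FKF1 did not share its gap. ZTL, the family member that acts on clock proteins, had 85.9, 70.7 and 70.6 CPM in the libraries labelled VGD1 and 71.8, 62.5 and 72.7 CPM in the controls. Its ranges overlapped, and the fold was 1.1 with a 95% interval from 0.932 to 1.30. LKP2, the third member, was even across libraries, at 20.5, 19.5 and 18.0 CPM in the libraries labelled VGD1 and 20.3, 18.2 and 18.6 CPM in the controls, a fold of 1.01 (0.847 to 1.21). The intervals of ZTL and LKP2 hold no difference of the size seen for FKF1. Set against each other per kilobase of exon, FKF1 supplied 4.36, 4.90 and 3.41% of the RNA of the 3 family members in the libraries labelled VGD1 and 18.8, 18.6 and 25.4% in the controls. ZTL RNA thus exceeded FKF1 RNA by 15.1 to 22.4 times in the libraries labelled VGD1 and by 2.32 to 3.36 times in the controls, on the same per-length scale.

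GI, the partner of all 3 receptors, lay lower in the libraries labelled VGD1 by a smaller step. It had 52.3, 46.7 and 56.1 CPM there and 60.1, 70.5 and 88.8 CPM in the controls. The groups did not overlap, but the highest library labelled VGD1 and the lowest control were close. Means were 51.7 ± 4.70 CPM in the libraries labelled VGD1 and 73.1 ± 14.5 CPM in the controls (SD, n = 3 each), a log2 fold change of -0.48 (SE 0.14, interval before any adjustment -0.79 to -0.17). GI did not pass the threshold over all genes. Control replicate 3 was the highest library for GI, as it was for FKF1. Since FKF1 differed more than GI, GI RNA per kilobase came to 6.07, 5.65 and 10.08 times that of FKF1 in the libraries labelled VGD1 and to 1.58, 2.15 and 1.604 times in the controls.

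The 4 CDF genes encode the repressors that FKF1 and GI act on, and none of them stood apart between groups. CDF2 had 50.6, 48.6 and 27.5 CPM in the libraries labelled VGD1 and 38.0, 29.9 and 17.1 CPM in the controls. The third replicate was the lowest library of each group, and the third replicate labelled VGD1 lay below control replicates 1 and 2. The log2 fold change of CDF2 was 0.51 (SE 0.32, interval -0.25 to 1.27), so neither no difference nor a 2.41-fold higher level lies outside it. CDF3 was even across libraries, at 41.0, 44.2 and 40.1 CPM in the libraries labelled VGD1 and 43.3, 40.7 and 37.2 CPM in the controls, with a fold of 1.02 (0.883 to 1.19). CDF1, the repressor first linked to CO, was far less abundant, at 3.10, 5.00 and 4.20 CPM in the libraries labelled VGD1 and 4.87, 5.14 and 3.90 CPM in the controls (log2 fold change -0.24, interval -0.78 to 0.30). CDF5 had 8, 29 and 26 counts in the libraries labelled VGD1 and 29, 26 and 1 counts in the controls, so a library of each group was low. At that depth its interval was wide, from 0.45 to 2.45 times the control level. Summed, the 4 CDF genes came to 95.1, 99.4 and 73.2 CPM in the libraries labelled VGD1 and to 87.5, 76.7 and 58.3 CPM in the controls, which overlap. Of this sum CDF2 made up 37.6 to 53.2% in the libraries labelled VGD1 and 29.3 to 43.4% in the controls.

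CO, the B-box transcription factor at the end of the pathway, was near the limit of detection in these samples. It had 19, 18 and 14 counts in the libraries labelled VGD1 and 23, 17 and 4 counts in the controls, that is, 0.880 ± 0.11 CPM in libraries labelled VGD1 and 0.774 ± 0.22 CPM in controls (SD, n = 3 each). The groups overlapped, and the interval ran from 0.567 to 2.03 times the control level. FT, the florigen gene that CO activates in leaf phloem, had 3.40, 5.57 and 4.63 CPM in the libraries labelled VGD1 and 6.91, 6.63 and 3.90 CPM in the controls. These ranges overlapped too (log2 fold change -0.47, SE 0.25, edgeR adjusted p = 0.463). SOC1, a MADS-box integrator downstream of FT, stood at 53.2 ± 13.4 CPM in libraries labelled VGD1 and 68.9 ± 10.5 CPM in controls (SD, n = 3 each), also with overlapping ranges.

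Levels of LKP2, CDF5 and CO carry a further limit. In the TAIR10.1 annotation 370 of 2344 exon bases of LKP2, 1154 of 1928 of CDF5 and 738 of 2924 of CO lie opposite exons of another locus (AT2G18917, AT1G69572 and AT5G15843). Those 3 loci had 0 counts in all 6 libraries. The sources used here do not give the strand setting of the counting or its handling of reads shared by overlapping loci, so reads of each pair cannot be told apart and the levels of these genes are uncertain.

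Of the 9 genes 1, FKF1, passed an adjusted p of 0.05 over all genes (edgeR quasi-likelihood test, Benjamini-Hochberg), where 82 of 19719 tested genes (0.416%) passed in either direction and 62 (0.314%) were lower. Because FKF1 was known to pass before the genes were chosen, nothing is read from that count. Groups did not overlap for 2 of the 9, FKF1 and GI, or 22.2%, beside 17.2% of all tested genes. The median log2 fold change was 0.04 over the 9 genes and 0.00 over all tested genes. FKF1 was called by each of the other tools, scalings and filters tried and without any 1 library. Those fits reuse the libraries in which FKF1 was known to pass, so their calls are no independent support.

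**Figure D2:**
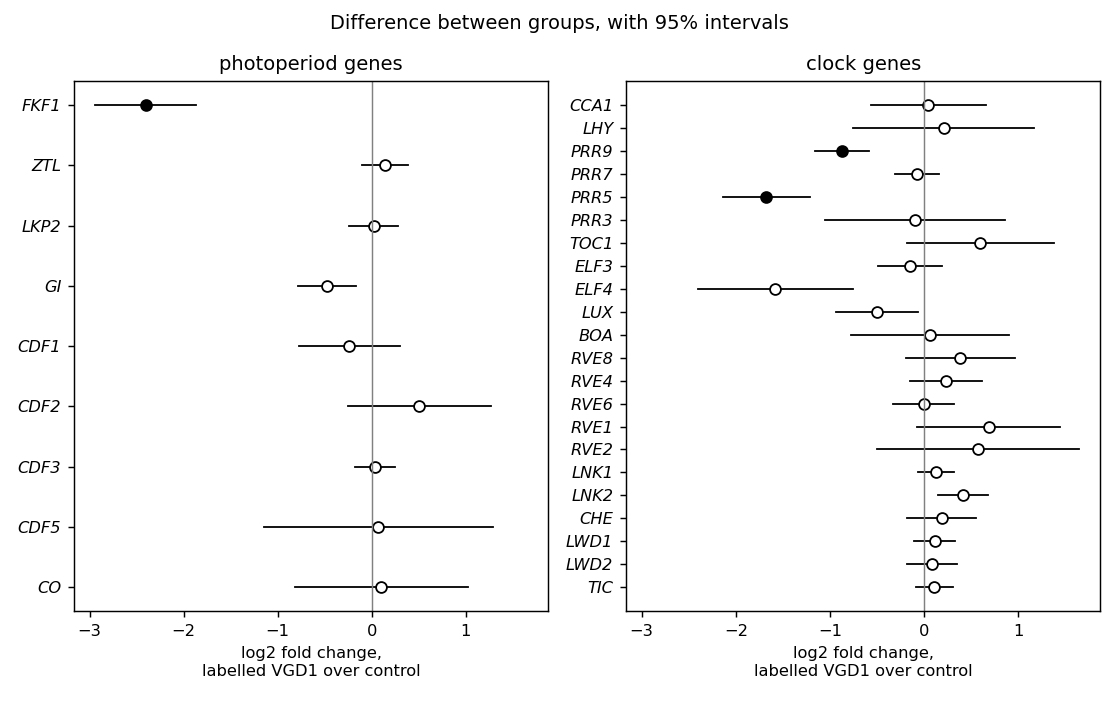
Log2 fold change of libraries labelled VGD1 over controls from the edgeR fit (points; filled where the adjusted p over all genes was below 0.05) with 95% intervals before adjustment, for the 9 photoperiod genes and 22 clock genes. FKF1 lies at -2.40, PRR5 at -1.68 and PRR9 at -0.87, and most other intervals include 0.

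Compared per kilobase of exon, ZTL was the most abundant of the 9 genes in all 6 libraries. In the libraries labelled VGD1 the order of mean levels was ZTL, CDF3, CDF2, GI, LKP2, CDF1, FKF1, CDF5 and CO, from 31.0 ± 3.62 CPM per kb for ZTL to 0.301 ± 0.037 CPM per kb for CO (SD, n = 3). In the controls it was ZTL, CDF3, GI, CDF2, FKF1, LKP2, CDF1, CDF5 and CO, from 28.3 ± 2.32 to 0.265 ± 0.075 CPM per kb. FKF1 held the seventh place in each library labelled VGD1 (1.74 ± 0.39 CPM per kb), and the fourth to sixth in the controls (9.77 ± 2.75 CPM per kb). In the libraries labelled VGD1, only CDF2 with GI and CDF5 with CO were neighbours whose library ranges overlapped. In the controls neighbours overlapped from CDF3 down to LKP2 and again between CDF5 and CO, so the order within those stretches is not settled by the spread.

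**Figure D3:**
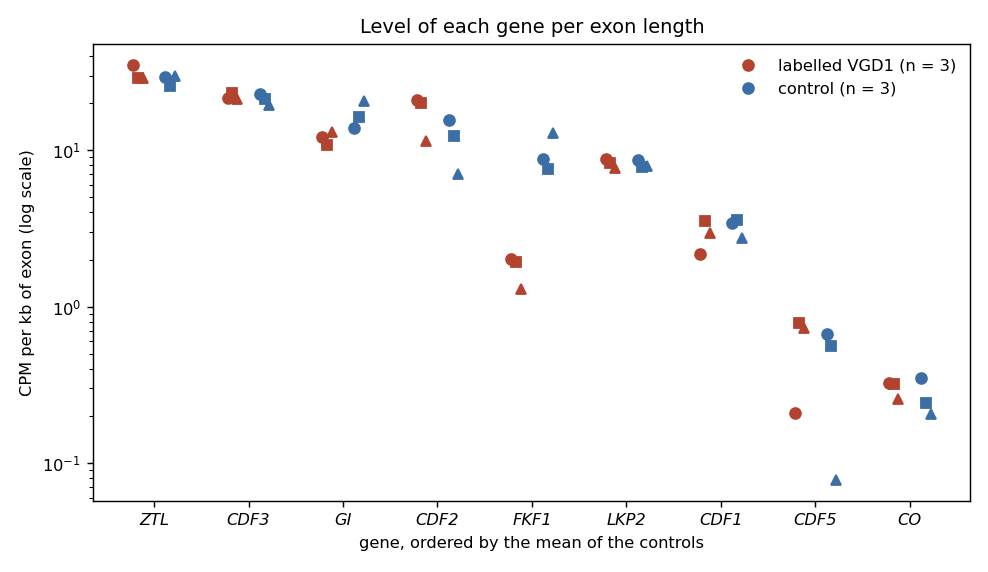
CPM per kb of exon (log axis) for the 9 genes in each library, with circles, squares and triangles for replicates 1, 2 and 3, ordered by the mean of the controls. FKF1 lies near LKP2 in the controls and below CDF1 in the libraries labelled VGD1. CDF5 in control replicate 3 rests on 1 count.

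Other genes of the clock and of the pathway were examined in 6 lists of 65 loci in all, of which 61 were tested; in the edgeR test 0 were called higher and 2 lower, and DESeq2 called TEM1 and LNK2 higher and PRR5, PRR9 and ELF4 lower. With edgeR the background is 82 genes, or 0.416% of all genes tested, in either direction. DESeq2 called 421 genes in all, so its calls have a larger background. Earlier results for PRR5 and PRR9 were known when the lists were written. Both called genes belong to the 22 clock genes. PRR5, a pseudo-response regulator that represses the morning clock genes, stood at 11.2, 10.5 and 17.1 CPM in the libraries labelled VGD1 and 40.6, 35.0 and 51.0 CPM in the controls (log2 fold change -1.68, SE 0.20, edgeR adjusted p = 0.0233). PRR9, a relative expressed earlier in the day, stood at 13.0, 12.1 and 12.4 CPM in the libraries labelled VGD1 and 25.4, 21.0 and 21.6 CPM in the controls (log2 fold change -0.87, SE 0.13, edgeR adjusted p = 0.0286). The groups did not overlap for either gene. Neither was called without control replicate 1 or without control replicate 2, and PRR9 was not called either without replicate 2 or without replicate 3 labelled VGD1. Of the clock list 14 genes lay above 0 and 8 below, with a median log2 fold change of 0.10, and groups did not overlap for 5 genes (22.7%), beside 17.2% of all tested genes.

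Another 4 clock genes were named after their values were seen. TOC1, a clock repressor that ZTL removes, had 104, 86.0 and 45.2 CPM in the libraries labelled VGD1 and 44.2, 49.8 and 64.8 CPM in the controls, so replicate 3 labelled VGD1 lay among the controls (edgeR adjusted p = 0.491). ELF4 and LUX, members of the evening complex, stood at 1.27 ± 0.28 CPM and 15.2 ± 3.17 CPM in the libraries labelled VGD1 and at 4.37 ± 1.80 CPM and 22.4 ± 5.43 CPM in the controls (SD, n = 3 each). Their groups did not overlap, and neither passed the edgeR test (adjusted p = 0.113 for ELF4 and 0.304 for LUX), while DESeq2 called ELF4. LNK2, a coactivator of evening genes, stood at 286 ± 39.9 CPM in the libraries labelled VGD1 and 215 ± 20.6 CPM in the controls (SD, n = 3 each; edgeR adjusted p = 0.182), and was called by DESeq2.

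No gene of the other 5 lists passed the edgeR test as reported, with all 6 libraries and no replicate block. Among 13 tested of 15 genes of CO partners and outputs the smallest p was that of TEM1, a repressor of FT, at 39.0, 41.9 and 23.2 CPM in the libraries labelled VGD1 and 23.8, 19.4 and 16.8 CPM in the controls (edgeR adjusted p = 0.215). TEM1 was called higher by DESeq2 and, with edgeR, without replicate 3 labelled VGD1 or with the replicate number as a block. Among 13 tested of 15 regulators of CO transcription or protein, it was that of TPL, the corepressor that CDF proteins recruit, at 291 ± 16.2 CPM in libraries labelled VGD1 and 257 ± 4.68 CPM in controls (SD, n = 3 each; edgeR adjusted p = 0.391). The 6 genes of the ubiquitin ligase core and of the chaperone HSP90 were even: ASK2, with the smallest p, stood at 83.2 ± 5.91 CPM in libraries labelled VGD1 and 76.9 ± 2.17 CPM in controls (SD, n = 3 each; edgeR adjusted p = 0.640). CDF4, of 3 further Dof genes, stood at 0.657 ± 0.16 CPM in libraries labelled VGD1 and 0.458 ± 0.13 CPM in controls (SD, n = 3 each; edgeR adjusted p = 0.626). PHOT1, a phototropin and the blue-light receptor with the smallest p of 4, stood at 74.7 ± 18.0 CPM in libraries labelled VGD1 and 91.9 ± 14.4 CPM in controls (SD, n = 3 each; edgeR adjusted p = 0.528). Median log2 fold changes of the 5 lists were -0.03, 0.01, 0.06, 0.32 and -0.06 in the order given, beside 0.00 for all tested genes. COL1, the neighbour and close relative of CO, was listed at 0 in all 6 libraries.

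Levels also varied among libraries of 1 group, apart from the difference between groups. Within the controls, replicate 3 had the most FKF1 and GI RNA and the least CDF1, CDF2, CDF3, CDF5 and CO RNA. Within the libraries labelled VGD1, replicate 3 had the most GI RNA and the least FKF1 and CDF2 RNA, so FKF1 and GI did not go together there. As deviations of log2 CPM from the group mean over the 6 libraries, GI ran opposite to CDF3 (Pearson r = -0.986), to CO (-0.909) and to CDF2 (-0.895). These are the strongest negative values of 36 pairs, picked after all were seen, and the points share library scaling. Without control replicate 3 they were -0.980, -0.864 and -0.753. Deviations within a group sum to 0, so each r rests on fewer independent values than libraries. For FKF1 with CDF2, r went from -0.066 to 0.999 when that library was left out. The deviations of CDF3 were small, between -0.12 and 0.10, while those of CDF2 ran from -0.65 to 0.50. For FKF1 with GI, r was 0.320 over the 6 libraries and -0.721 without control replicate 3, so the sign rests on that library, the shallowest.

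**Figure D4:**
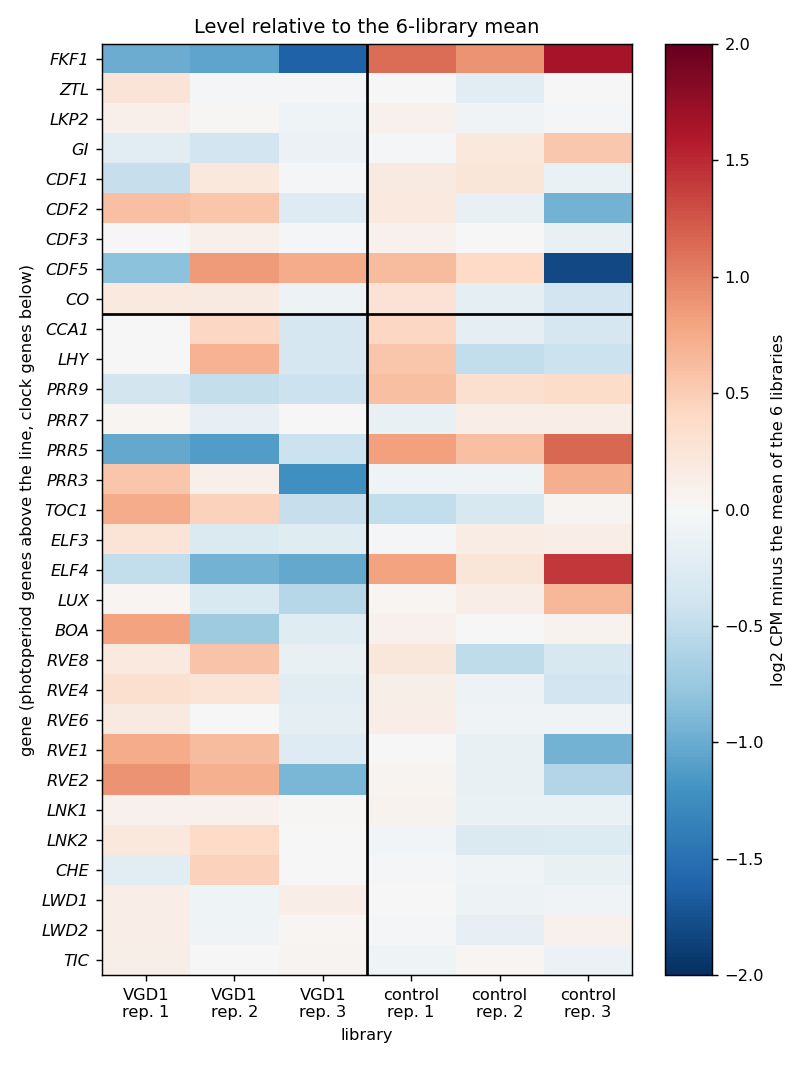
Log2 CPM minus the mean of the 6 libraries for the 9 photoperiod genes and 22 clock genes in each library, with red above and blue below the mean. FKF1, PRR9, PRR5 and ELF4 are below their mean in all 3 libraries labelled VGD1 and above it in all 3 controls, whereas CDF2 and RVE1 are low in the third replicate of each group.

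Genes whose pattern over the 6 libraries was nearest to FKF1 were ranked by Pearson's r of log2 CPM among 8205 genes with a symbol and a mean of at least 1 CPM. The first 5 were ACD32.1, a small heat shock protein gene (r = 0.986), CIPK21, a calcium-signalling kinase gene (0.986), MYB47, a MYB transcription factor gene (0.979), SULTR1;2, a sulfate transporter gene (0.979), and KRP2, an inhibitor of cyclin-dependent kinases (0.978). ACD32.1 stood at 10.5, 8.64 and 8.57 CPM in the libraries labelled VGD1 and 18.5, 19.2 and 22.2 CPM in the controls. GI came 256th for FKF1, with r = 0.825. Nearest to GI were BIOF, CDKC;1, MNS3, DOF2.4 and MPK16, with r from 0.972 to 0.990, and CDF2 was among the most opposed, at 8074th (r = -0.893). FKF1 and all 10 of these genes have groups that do not overlap, so much of each r comes from the step between groups, and r over 6 libraries is given as a description only.

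Markers of other tissues, among them the tapetum of anthers, were found in all 6 libraries, so levels given here are those of a mixed sample. These markers lay lower in the libraries labelled VGD1. All 11 markers of green tissue had a log2 fold change below 0 (median -0.36), and their summed level was 11260 to 13650 CPM in the libraries labelled VGD1 and 12440 to 17320 CPM in the controls. Of 8 phloem markers 7 lay below 0 (median -0.42), with sums of 177 to 212 CPM in the libraries labelled VGD1 and 204 to 294 CPM in the controls. All 9 xylem and all 11 tapetum markers lay below 0 (medians -0.58 and -0.81), with sums of 120 to 198 CPM and 445 to 1358 CPM in the libraries labelled VGD1 and of 195 to 274 CPM and 1378 to 1561 CPM in the controls. No marker of these lists was called, and none was at 0 in all libraries. Groups did not overlap for 27.3% of green tissue, 37.5% of phloem, 44.4% of xylem and 45.5% of tapetum markers. These shares stand beside 17.2% of all tested genes and 50% of the tested meristem markers. Of 8 tested meristem markers 5 lay above 0, and the sum over all 9 was 425 to 471 CPM in the libraries labelled VGD1 and 411 to 425 CPM in the controls. Mean sums in the libraries labelled VGD1 were 0.796 times the control mean for green tissue, 0.767 for phloem, 0.653 for xylem and 0.573 for tapetum. By the edgeR fit, a different measure, FKF1 was at 0.189 and GI at 0.718 times the control level. Single markers of those tissues ran from 0.348 (A7, tapetum) to 1.005 (SWEET12, phloem) by the same fit. The part of these tissues in the levels of FKF1 and GI was not tested.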

How the data were processed

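The authors deposited whole-number read counts per locus in 1 table for each of 6 libraries; alignment was with RNA STAR, per the file headers. The submitters' processing notes name TAIR10 and DESeq2 without versions or roles, and the counting tool, its strand setting and its annotation are not named in any source used here. Of 32833 loci, 32548 matched TAIR10.1, which was used for symbols, exon length and overlaps only. As that build is named differently, its coordinates served for exon lengths and overlaps only. No promoter or protein sequences were used here, so 2 planned descriptions of motifs and protein identity were not made. Groups came from the titles. Totals lay between 6638772 and 24437872 counts, and a count of 0 allows up to 3 counts (0.452 CPM in control replicate 3, 0.123 to 0.163 CPM in the others, counting error only). Chi-square values per gene were 7.89 to 19.7 between libraries of 1 group and 7.02 to 28.4 between groups. The lowest was that of control replicate 3 with replicate 3 labelled VGD1. None was thus a copy of another.

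Fits used edgeR 4.0.16 in R 4.3.3 (TMM, filterByExpr with a minimum count of 10 and total of 15, glmQLFit robust without legacy mode, two-sided quasi-likelihood F test, Benjamini-Hochberg over 19719 genes, threshold 0.05). Standard errors came from the log2 fold change and F, and 95% intervals from a t distribution with the total degrees of freedom of the fit. The fit was tested on simulated data. Log2 CPM used a prior count of 2. Alternatives were RLE factors, library totals, no filter, DESeq2 1.42.0, limma-voom (limma 3.58.1), thinned counts, the replicate number as a block and leaving out each library. Genes and lists were chosen with earlier results of these data known. Genes named are the 9 genes, called list members or else the smallest p of a list, the 5 nearest to FKF1 and to GI, loci overlapping them, and VGD1 and CLV3; STM, CLV1, FT, SOC1, COL1, TOC1, ELF4, LUX, LNK2 and RVE1 were added after their values were seen.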

Additional observations from a re-analysis of the deposited data

How the results depend on the processing

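The count of called genes depended on the processing. It was 82 as reported, 139 without the filter on low counts, 421 with DESeq2, 45 with limma-voom, 30 with thinned libraries and 4 (without control replicate 2) to 202 (without replicate 1 labelled VGD1) when 1 library was left out; it was 12 and 189 without control replicates 1 and 3, and 45 without replicate 3 labelled VGD1. With library totals in place of TMM, 30 genes were higher and 56 lower, against 20 and 62 as reported. FKF1 was called in all 13 alternatives, with log2 fold changes from -2.92 to -2.23 and edgeR, DESeq2 or limma adjusted p up to 0.0388, and GI in 0 of 13 (-0.60 to -0.34; lowest adjusted p 0.0799, with DESeq2). As their groups do not overlap, leaving out 1 library could hardly turn their direction. Every alternative reuses the libraries in which FKF1 was known to pass, so its calls there are a description only. Pathway genes called numbered 2 as reported, 5 with DESeq2 (2 higher, 3 lower), 1 with thinned libraries and 0 to 2 with 1 library left out. Directions turned for 5 of the 9 genes, all with intervals that include 0. With thinned libraries LKP2 was at -0.073 and CDF1 at 0.275. With 1 library left out LKP2 ran from -0.023 to 0.087, CDF3 from -0.007 to 0.099, CDF5 from -0.220 to 0.484 and CO from -0.056 to 0.380; CDF5 and CO were not tested in thinned libraries. Of the 5 genes nearest to FKF1, 4 were the same with a prior count of 0.5. The cause of these changes was not tested.

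Same-numbered libraries of the 2 groups had deviations that correlated at -0.01, 0.033 and 0.095, so the numbers were not taken to pair them. With the replicate number as a block 194 of the 19719 tested genes were called, a larger background than the 82 as reported. Among them were 2 of the 9 (FKF1 and CDF2, CDF2 higher) and 4 pathway genes (TEM1 and RVE1 higher, PRR5 and PRR9 lower).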
